A study of Mus musculus with 9 samples.

Results

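Integrins, laminins, collagens and 5 further matrix proteins were followed in mouse embryonic stem (ES) cells sorted by their level of Myc, a transcription factor that promotes growth. The members were all genes whose name begins with the symbol of an integrin subunit (Itga or Itgb with a number, Itgav, Itgal, Itgam, Itgae), a laminin chain (Lama, Lamb, Lamc) or a collagen chain (Col), together with Fn1, Nid1, Nid2, Hspg2 and Agrn. The rule used names and no measured values, and it took 55 of the 13499 genes in the authors' table. They were 10 integrin alpha subunits, 5 integrin beta subunits, 7 laminin chains, 2 type IV collagen chains, 23 chains of other collagens, the 5 matrix proteins, and 3 genes that share only a name with these families (Itgb1bp1, Itgb3bp and Col4a3bp). All 55 were tested, and 18 of them had a mean level below 5 in each population. The 3 populations, High, Medium and Low, are named by Myc level and have 3 libraries each, described as biological replicates. All came from C57BL/6 ES cells on gelatine in medium with LIF and were sorted on GFP-Myc or EYFP fluorescence; the labels do not say which reporter served which library, and no knockout or drug is named. Whether the replicates came from separate cultures is not stated, so p-values measure the spread between these libraries.

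Most epithelial cells, and the embryo's earliest cell layers, sit on a basement membrane. Laminins, trimers of an alpha, a beta and a gamma chain, form its first network; type IV collagen forms a second network, nidogens bridge both, and the heparan sulphate proteoglycans perlecan (Hspg2) and agrin (Agrn) bind into it. Integrins are membrane receptors built of an alpha and a beta subunit that hold cells to these proteins and to fibronectin (Fn1). In mouse ES cells the trimer of Lama5, Lamb1 and Lamc1 is known as a substrate for self-renewal, and the trimer of Lama1, Lamb1 and Lamc1 as the major laminin of the early embryo.

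RNA was sequenced as single-end reads of 61 nt. The values are the authors' normalised read counts, in which a gene's reads were scaled by a factor for its library to nearly CPM, and are called level here. Recovered depth was 11114936 to 16755566 reads per library, so the members rested on 4 to 18919 reads in a library; counting error is therefore large for the rarest collagens and small for Fn1 or Lamc1. Myc RNA was 112, 101 and 106 in High, 70.0, 65.5 and 65.8 in Medium, and 26.3, 27.6 and 24.2 in Low, which follows the labels. The libraries also differed in how they represented long transcripts. The median deviation of genes in the upper quartile of transcript length, minus that of the lower quartile, was 0.25, -0.06 and -0.07 (log2) in High, 0.30, -0.05 and 0.25 in Medium, and 0.28, -0.59 and -0.27 in Low. Low replicates 2 and 3 thus stood apart from Low replicate 1, and values with a correction for transcript length are given beside the results they touch. In bulk RNA of a sorted population, fewer cells of a type and less RNA per cell cannot be told apart.

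In High against Low, 21 of the 55 members were higher, 4 were lower and 30 did not pass (limma, Benjamini-Hochberg adjusted p under 0.05 over all 13499 genes). The share called in either direction was 45.5%, beside 28.4% of all genes tested; the share called higher was 38.2%, beside 13.8%, and 14.6% of all genes were called lower. Of the 4 lower members, Col6a1 and Col6a2 reached 1 CPM in no High library, a limit described with their values below. The median log2 fold change of the members was 0.40, beside -0.00 for all genes, and it was 0.26 beside 0.01 after the length correction. By family, among laminin chains 5 of 7 were higher, among integrin alpha subunits 5 of 10, among integrin beta subunits 2 of 5 (1 was lower), among the further matrix proteins 3 of 5, and among collagens other than type IV 5 of 23 (2 were lower). In the 25 called members the High and Low libraries did not overlap; in all, 25 members had every High library above every Low library (20.2% of all genes did) and 4 had every High library below (21.4%). All 25 kept their call after the length correction, with the replicate block, and with both, and 38.5% and 38.8% of all genes were called in the first 2 of these fits. In place of 21, between 12 and 32 members were called higher with a single library left out, the fewest without High replicate 1 (13 without Low replicate 3) and the most without Low replicate 1.

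**Figure D1:**
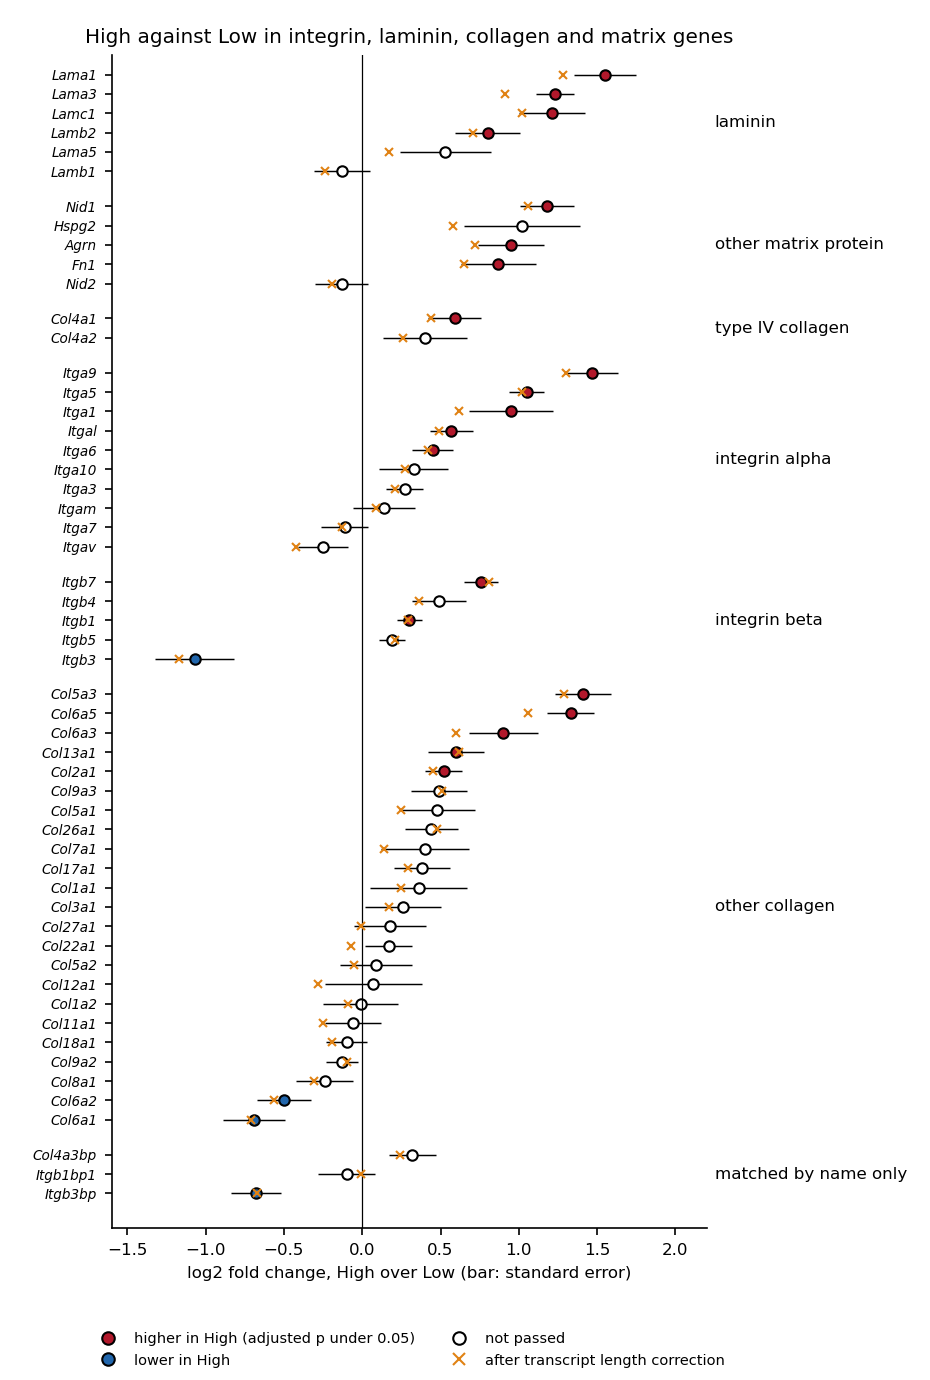
Log2 fold change, High over Low, of members, grouped by family, with the standard error as a bar; red points were higher in High and blue points lower at an adjusted p under 0.05, open points did not pass, and crosses are the values after the length correction. Lama1, Itga9 and Col5a3 lie farthest above 0 and Itgb3 farthest below it.

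Lama1 and Lamc1 were higher in High and their partner Lamb1 did not pass. Lama1 (chr17:67697259-67822647 on GRCm38), the alpha chain of early embryonic laminin, had levels of 76.1, 64.7 and 63.6 in High, 58.0, 51.2 and 57.6 in Medium, and 32.9, 17.2 and 20.04 in Low. The 3 ranges did not overlap, and the ratio of the High mean to the Low mean was 2.91 (log2 fold change 1.55 ± 0.20 SE, adjusted p = 0.000452). Lamc1 (chr1:153218922-153332786), the gamma chain shared by most laminins, had 606, 493 and 478 in High, 503, 403 and 478 in Medium, and 328, 173 and 202 in Low. All High libraries were above all Low libraries, at a log2 fold change of 1.21 ± 0.21 (adjusted p = 0.00255). Lamb1, the beta chain that completes both trimers, had 113, 103 and 98.2 in High, 135, 118 and 131 in Medium, and 158, 87.6 and 109 in Low. Its High and Low libraries overlapped (log2 fold change -0.13 ± 0.18, adjusted p = 0.614), and without Low replicate 1 the value turned to 0.09 (adjusted p = 0.505). With the length correction and the block together, Lamb1 was lower in High by -0.24 (adjusted p = 0.0439); it passed under no other setting for High against Low.

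Other laminin chains fell on both sides of the threshold. Lama3, the alpha chain of an epithelial laminin that anchors the epidermis, had 90.4, 78.1 and 76.9 in High, 76.9, 65.3 and 68.1 in Medium, and 40.1, 29.2 and 34.3 in Low (log2 fold change 1.23 ± 0.12, adjusted p = 0.000117, the smallest of the 55). It was above Low in every High library. Lamb2, the beta chain prominent at the neuromuscular junction and kidney filter, had 21.3, 21.5 and 19.9 in High, 17.5, 17.6 and 21.9 in Medium, and 17.1, 8.32 and 10.7 in Low. It was higher in High (0.80 ± 0.21, adjusted p = 0.0178), a call lost without High replicate 1 (0.0539), High replicate 2 (0.0586) or Low replicate 3 (0.0661). Lama5, the alpha chain of the self-renewal laminin, had 275, 218 and 219 in High, 220.2, 198 and 258 in Medium, and 277, 105 and 151 in Low. Low replicate 1 lay at the level of the highest High library, and Lama5 did not pass (0.53 ± 0.29, adjusted p = 0.197). Without that library it was higher in High (0.90, adjusted p = 0.00186), while the length correction left 0.17 (adjusted p = 0.334).

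Of the nidogens, which clip laminin to type IV collagen, Nid1 differed with Myc level and Nid2 did not pass. Nid1 (chr13:13437551-13512269) had levels of 165, 127 and 123 in High, 127, 104 and 120.4 in Medium, and 77.0, 49.7 and 56.4 in Low. All High libraries were above all Low libraries (log2 fold change 1.18 ± 0.17, adjusted p = 0.000852). Nid2 had 170 (169.8), 147 and 151 in High, 191, 167 and 189 in Medium, and 229, 132 and 164 in Low. Its ranges overlapped (-0.13 ± 0.17, adjusted p = 0.599); 8.45% of its exonic bases overlap those of Rtraf on the opposite strand, and the sources used here do not give the strand setting of the counting.

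Of the large multidomain matrix proteins, Fn1 and Agrn were higher in High and Hspg2 did not pass. Fn1, which encodes fibronectin, the ligand of Itga5 with Itgb1, had levels of 1249, 971 and 958 in High, 993, 830 (829.7) and 1081 in Medium, and 865, 417 and 524 in Low. It was the member with the highest level per kilobase of longest transcript, with means of 127 per kb in High, 116 in Medium and 72.4 in Low, and it was higher in High than in Low (log2 fold change 0.87 ± 0.24, adjusted p = 0.0218). The Fn1 call was lost without High replicate 1 (0.0809), Low replicate 2 (0.0556) or Low replicate 3 (0.0802). Agrn, which encodes agrin, had 274, 233 and 243 in High, 219, 198 and 235 in Medium, and 189, 93.3 and 119 in Low, with no overlap between High and Low (0.95 ± 0.21, adjusted p = 0.00864). Hspg2, which encodes perlecan and has the longest transcript of the members (14187 nt), had 428, 317 and 314 in High, 386, 284 and 394 in Medium, and 353, 106 and 134 in Low. Low replicate 1 was inside the High range, and Hspg2 did not pass at 1.02 ± 0.37 (adjusted p = 0.0648). It was called higher with the replicate block (adjusted p = 0.0113), after the length correction (0.58, adjusted p = 0.0286) and without Low replicate 1 (1.54, adjusted p = 0.000144).

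**Figure D2:**
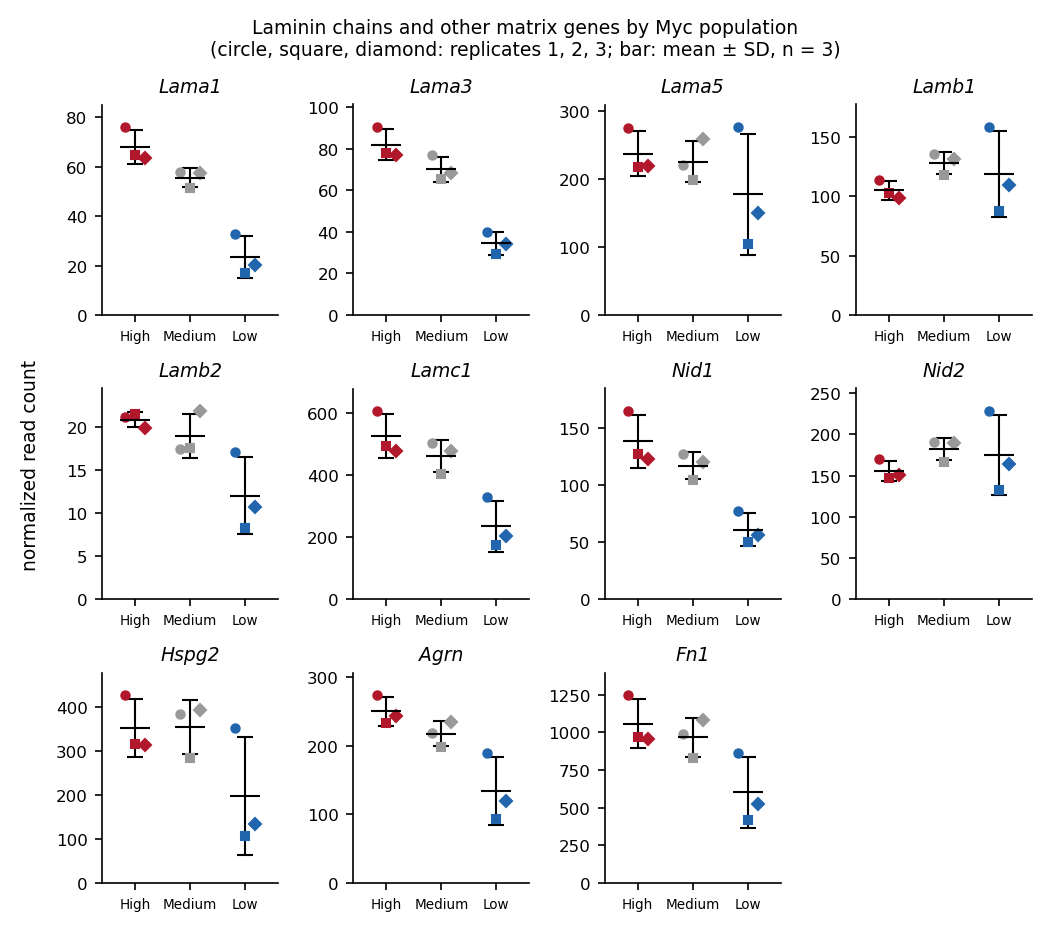
Normalised read count (linear axis from 0) of laminin chains and 5 further matrix genes in every library, 1 panel a gene, with High left of Medium and Low; circles, squares and diamonds are replicates 1, 2 and 3, and bars are the mean ± SD (n = 3). Lama1, Lama3, Lamc1 and Nid1 lie higher in all High than in all Low libraries, while Lama5, Lamb1, Nid2 and Hspg2 overlap, with Low replicate 1 the highest Low library.

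The 2 type IV collagen chains, Col4a1 and Col4a2, form a joint trimer and start from opposite strands of a shared promoter. Col4a1 had levels of 18.3, 14.9 and 16.3 in High, 19.6, 15.7 and 19.1 in Medium, and 14.5, 9.12 and 9.07 in Low. It was higher in High than in Low (log2 fold change 0.59 ± 0.17, adjusted p = 0.0312), but the call was lost without High replicate 1 (0.106), 2 (0.0549) or 3 (0.0779), without Low replicate 2 (0.0889) or 3 (0.119), and with libraries rescaled to the same total (0.0558). Col4a2 had 6.80, 6.05 and 4.75 in High, 6.91, 5.21 and 6.96 in Medium, and 7.60, 3.04 and 3.02 in Low. It did not pass (0.40 ± 0.27, adjusted p = 0.314) and passed without Low replicate 1 (0.76, adjusted p = 0.0059). Per kilobase both chains were far below Lamc1, with mean levels in High of 2.50 per kb for Col4a1, 0.909 for Col4a2 and 69.0 for Lamc1.

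Among integrin alpha subunits, Itga5 and Itga9 were higher in High under every alternative run. Itga5 (chr15:103344286-103366763), which pairs with Itgb1 as the classical fibronectin receptor, had levels of 128, 125 and 122 in High, 104, 95.5 and 105 in Medium, and 69.2, 50.1 and 60.8 in Low. The 3 populations did not overlap, and the mean in High was 2.08-fold that in Low (log2 fold change 1.05 ± 0.11, adjusted p = 0.000143). Itgav, which also binds the RGD motif of fibronectin and vitronectin, had 22.0, 18.2 and 17.1 in High, 27.7, 20.2 and 22.9 in Medium, and 27.7, 18.7 and 23.0 in Low. Its ranges overlapped (-0.25 ± 0.16, adjusted p = 0.281), and after the length correction it was lower in High (-0.42, adjusted p = 0.00461). Itga9, a receptor for tenascin and related ligands, had 11.4, 11.0 and 9.98 in High, 9.28, 6.202 and 9.06 in Medium, and 4.01, 2.77 and 3.10 in Low (1.47 ± 0.16, adjusted p = 0.000207).

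The promoters of Itga5 and Itgav are shown because Itga5 was called and Itgav, another RGD-binding alpha subunit, was not. Each is the 250 bases before the RefSeq start on GRCm38.p6, written 5′ to 3′ along the gene; capitals mark GGGCGG or its reverse complement CCGCCC, the core of a GC box. The Itga5 promoter is chr15:103366792-103367041 on the minus strand and holds 2 such matches, while the Itgav promoter is chr2:83724147-83724396 on the plus strand and holds 0.
Itga5: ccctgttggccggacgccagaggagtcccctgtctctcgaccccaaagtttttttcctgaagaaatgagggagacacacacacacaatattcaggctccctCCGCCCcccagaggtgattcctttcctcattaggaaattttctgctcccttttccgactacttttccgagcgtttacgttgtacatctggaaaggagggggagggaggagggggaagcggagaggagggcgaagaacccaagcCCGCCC
Itgav: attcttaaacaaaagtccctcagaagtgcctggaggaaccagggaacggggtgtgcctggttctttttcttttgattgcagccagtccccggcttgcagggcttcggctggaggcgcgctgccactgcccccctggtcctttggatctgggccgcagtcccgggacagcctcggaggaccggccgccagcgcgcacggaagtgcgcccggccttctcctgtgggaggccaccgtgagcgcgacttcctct
RefSeq promoters were matched for 36 of the 55 members (40 promoters). GGGCGG, read on both strands, was in 25 of these 40 (62.5%), beside 10756 of all 32851 promoters of the same length (32.7%); among promoters of members higher in High it was in 7 of 14 (50%), and among those of the other members in 18 of 26 (69.2%). CACGTG, the palindromic E-box that Myc with Max can bind, was in 0 of the 40 and in 1978 of the 32851 (6.02%). These letters do not occur in the windows read, and no binding was measured. The 32851 promoters belong to 27025 genes, while the authors' table holds 13499 genes. They thus include genes outside that table, whereas every member was in it, so the 2 shares are of unlike sets.

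The other integrin alpha subunits were higher by less, or did not pass. Itga6, a laminin receptor subunit and long-used surface marker of stem cells, had levels of 187, 166 and 163 in High, 195, 159 and 183 in Medium, and 149, 107 and 123 in Low. It had the highest level per kilobase of all integrin subunits (means of 39.9 in High, 41.5 in Medium and 29.3 in Low) and was higher in High than in Low (log2 fold change 0.45 ± 0.13, adjusted p = 0.0254). Itga6 lost that call without High replicate 1 (0.0929), 2 (0.0602) or 3 (0.0525), without Low replicate 2 (0.0686) or 3 (0.0826), under quantile normalization (0.0575) and with equal totals (0.0532). Itga1, a collagen receptor subunit, had 4.56, 2.93 and 3.70 in High, 3.33, 2.34 and 2.87 in Medium, and 2.74, 0.626 and 1.35 in Low (0.95 ± 0.27, adjusted p = 0.0254), and its log2 fold change was 0.62 after the length correction. Its call was lost without High replicate 1 (0.0907) or 3 (0.0687), without Low replicate 2 (0.0642) or 3 (0.0781), and in edgeR (0.0502). Itgal, the alpha subunit of a leukocyte integrin, had 8.58, 6.49 and 6.76 in High, 5.40, 5.84 and 6.45 in Medium, and 5.21, 3.76 and 4.85 in Low (0.57 ± 0.14, adjusted p = 0.017). With a single library left out, the Itgal call was lost without High replicate 1 (0.0673) or Low replicate 2 (0.0511).

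Itga3, Itga7, Itga10 and Itgam did not pass, with log2 fold changes of 0.27, -0.11, 0.33 and 0.14. Itga3, a laminin receptor subunit, had levels of 66.2, 62.0 and 62.9 in High, 66.0, 60.3 and 69.5 in Medium, and 63.2, 45.2 and 51.5 in Low; it passed with the replicate block (adjusted p = 0.0439) and after the length correction (0.0355). Itgam, a leukocyte subunit, stayed between 0.557 and 1.53 in all 9 libraries, and 68.7% of its exonic bases are shared with Gm49368 on the same strand, so its reads may be split. Itga10, a collagen receptor subunit, shares 33.5% with Gm42957 and carries the same doubt.

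Among beta subunits, Itgb7 was higher in High and Itgb3 lower. Itgb7, known as the partner of Itga4 in lymphocyte homing, had levels of 33.3, 28.4 and 29.4 in High, 29.7, 25.9 and 26.0 in Medium, and 16.5, 16.1 and 20.1 in Low (log2 fold change 0.76 ± 0.11, adjusted p = 0.00108). Itgb3, the partner of Itgav in a vitronectin receptor, had 1.45, 1.16 and 1.61 in High, 3.15, 1.71 and 2.11 in Medium, and 6.47, 3.13 and 3.18 in Low. All High libraries were below all others, on 13 to 22 reads in a High library and 35 to 92 in a Low library (-1.07 ± 0.25, adjusted p = 0.0105, and 0.0576 without Low replicates 1 and 2 together). Itgb1, the shared beta subunit of the receptors for laminin, collagen and fibronectin, had 130.2, 123 and 122 in High, 141, 122 and 124 in Medium, and 107, 98.1 and 99.98 in Low. It was higher in High by 0.30 ± 0.08 (adjusted p = 0.0216), a small difference whose call was lost without High replicate 1 (0.0815), 2 (0.0591) or 3 (0.0568), without Low replicate 2 (0.053) or 3 (0.0801), and under quantile normalization (0.0806). Itgb4, which pairs with Itga6 in hemidesmosomes, had 11.2, 12.1 and 11.8 in High, 9.94, 8.99 and 10.6 in Medium, and 10.1, 5.63 and 9.07 in Low. Its High libraries lay above all Low libraries without passing (0.49 ± 0.17, adjusted p = 0.0621); it passed with the block (0.0337) and after the length correction (0.0435). Itgb5, another partner of Itgav, had means of 65.7 ± 3.24 in High, 66.6 ± 2.02 in Medium and 57.5 ± 3.79 in Low (SD, n = 3 each; adjusted p = 0.101) and passed after the length correction (0.0327).

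**Figure D3:**
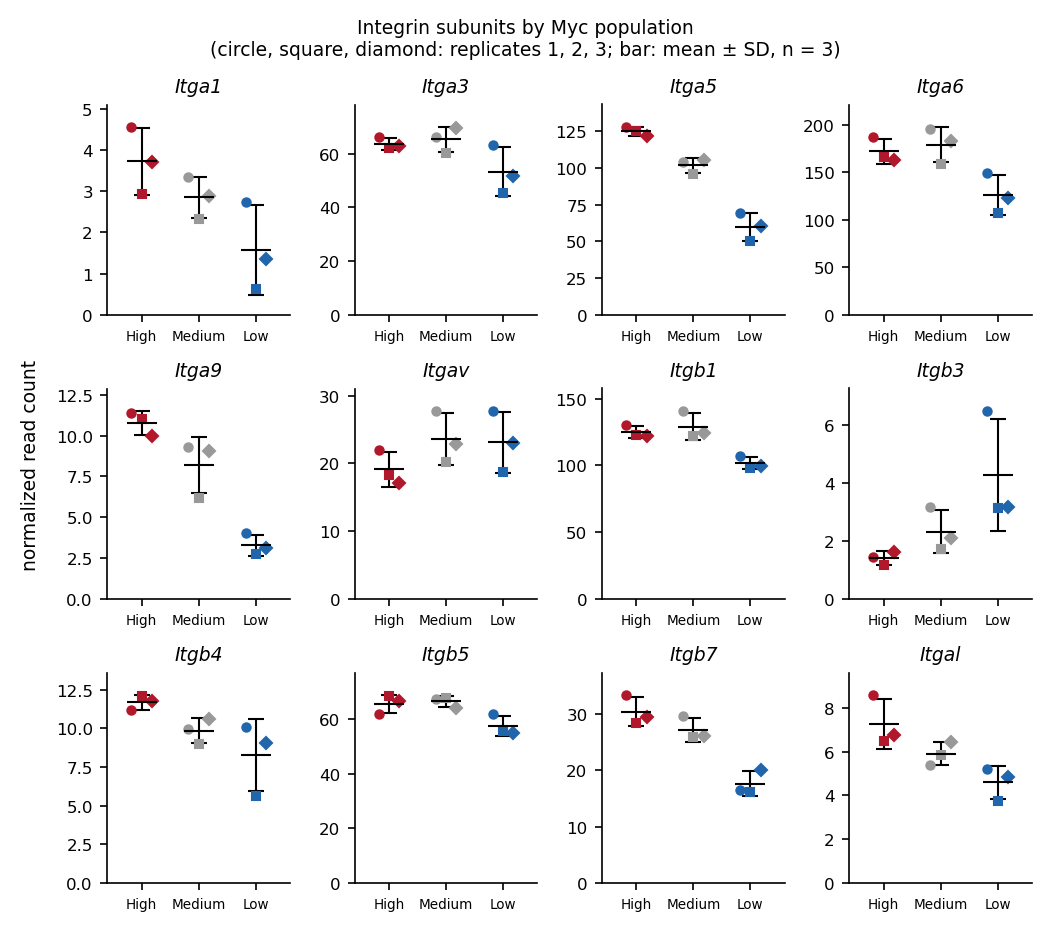
Normalised read count (linear axis from 0) of integrin subunits in every library, 1 panel a gene, with High left of Medium and Low; circles, squares and diamonds are replicates 1, 2 and 3, and bars are the mean ± SD (n = 3). Itga5, Itga9 and Itgb7 lie higher in all High than in all Low libraries, Itgb3 lies lower, and Itgav overlaps.

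Ordered by mean level per kilobase in High, the leading subunits were Itga6 (39.9), Itgb1 (32.8), Itga5 (28.2) and Itgb5 (20). In Low the order was Itga6 (29.3), Itgb1 (26.6), Itgb5 (17.5) and Itga5 (13.6), so Itga5 stood above Itgb5 in High and below it in Low. The leading matrix genes per kilobase in High were Fn1 (127), Lamc1 (69.0), Col18a1 (55.6), Nid2 (32.0) and Agrn (29.0), and in Low they were Fn1 (72.4), Col18a1 (60.4), Nid2 (35.9), Lamc1 (30.7) and Lamb1 (20.5). Lamc1 thus stood above Col18a1 in High and below it in Low.

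Collagens other than type IV were mostly rare in these cells, and most did not pass. Col18a1, a basement membrane collagen whose end fragment is endostatin, was the exception in level, at 316, 318 and 299 in High, 332, 314 and 322 in Medium, and 411, 276 and 326 in Low. It did not pass (log2 fold change -0.10 ± 0.13, adjusted p = 0.596); after the length correction it was lower in High (-0.19, adjusted p = 0.0385). Col5a3, a chain of the fibril-regulating type V collagen, had 9.57, 9.87 and 9.25 in High, 7.52, 7.19 and 6.90 in Medium, and 4.50, 2.06 and 2.78 in Low. The 3 populations did not overlap (1.41 ± 0.18, adjusted p = 0.000534). Col2a1, the fibrillar collagen of cartilage, had 6.67, 6.40 and 5.87 in High, 5.46, 4.94 and 4.85 in Medium, and 4.57, 3.49 and 4.30 in Low, again without overlap (0.52 ± 0.12, adjusted p = 0.0108, and 0.0718 without Low replicates 1 and 2 together). Col13a1, a transmembrane collagen, had 2.38, 2.22 and 3.14 in High, 1.52, 1.53 and 1.60 in Medium, and 1.97, 0.805 and 1.43 in Low. Its call (0.60 ± 0.18, adjusted p = 0.0336) rested on 25 to 39 reads in a High library; it was lost without each of the 3 High libraries in turn (0.0571 to 0.119), without Medium replicate 3 (0.0522), without Low replicate 2 (0.0997) or 3 (0.0793), with equal totals (0.0583), in edgeR (0.0594) and in DESeq2 (0.0716).

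The type VI collagen chains, which assemble into beaded microfibrils around cells, were called in opposite directions. Col6a5 had levels of 6.21, 6.13 and 7.08 in High, 4.12, 4.58 and 5.24 in Medium, and 1.48, 2.33 and 2.23 in Low, a 3.22-fold higher mean in High than in Low (log2 fold change 1.33 ± 0.15, adjusted p = 0.000234). Col6a3 had 3.17, 1.87 and 1.77 in High, 2.12, 2.07 and 1.60 in Medium, and 1.196, 0.805 and 0.318 in Low (0.90 ± 0.22, adjusted p = 0.0144, and 1.54 in edgeR). Both chains were above Low in every High library; the Col6a3 call was lost without High replicate 1 (0.0552) or Low replicate 3 (0.0543). Col6a1, an obligate partner in the usual trimer, had 0.9904, 0.356 and 0.483 in High, 1.09, 1.26 and 0.575 in Medium, and 1.97, 1.34 and 1.51 in Low. It was lower in High (-0.69 ± 0.20, adjusted p = 0.0279, and -1.34 in edgeR) on 4 to 15 reads in a High library and 15 to 28 in a Low library. The Col6a1 call was lost without High replicate 2 (0.101) or 3 (0.0872), without Low replicate 1 (0.0505) or 3 (0.0691), and under quantile normalization (0.0732). Col6a2, the other usual partner, had 0.726, 0.8001 and 0.322 in High, 0.546, 0.989 and 0.638 in Medium, and 1.34, 1.34 and 1.19 in Low. Every gene in the authors' table reached 1 CPM in at least 3 libraries, and Col6a2 did so only in Low. Col6a1 reached 1 CPM in every Low library, in Medium replicates 1 and 2 and in no High library. It thus met the limit only with its Low libraries. Lower values of Col6a1 and Col6a2 in High may have been favoured by this limit, and their direction is not independent of it. The Col6a2 call (-0.50 ± 0.17, adjusted p = 0.0482, and -1.05 in edgeR) was lost in edgeR (0.053) and DESeq2 (0.113). It was also lost under quantile normalization (0.102), at a pseudocount of 2 CPM (0.0547) and without each High library in turn (0.0605 to 0.161). The same held without each Low library in turn (0.0663 to 0.119) and without Medium replicate 1 (0.0562) or 3 (0.0672).

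The fibril-forming collagens of connective tissue, Col1a1, Col1a2, Col3a1, Col5a1 and Col5a2, did not pass in High against Low, and the highest of the 3 means of each was that of Medium. Col1a1 had levels of 13.5, 9.60 and 7.32 in High, 21.7, 13.0 and 10.7 in Medium, and 11.3, 6.26 and 5.81 in Low. In each population replicate 1 was the highest, and with the replicate block Col1a1 was higher in High than in Low (log2 fold change 0.36, adjusted p = 0.412 without and 0.0231 with the block, and 0.0617 with block and length correction). Col1a2, which joins Col1a1 in type I collagen, had 12.5, 11.2 and 8.53 in High, 20.9, 15.1 and 12.2 in Medium, and 15.1, 9.03 and 9.07 in Low (-0.01, adjusted p = 0.976). Col3a1, Col5a1 and Col5a2 stayed between 3.02 and 9.88 in all libraries, and of these Col5a1 passed with the block (0.48, adjusted p = 0.0449) but not with block and length correction together (0.25, adjusted p = 0.142).

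The remaining collagens that did not pass were Col7a1, Col8a1, Col9a2, Col9a3, Col11a1, Col12a1, Col17a1, Col22a1, Col26a1 and Col27a1. Col9a2, a chain of a fibril-associated cartilage collagen, was the most abundant of them, with means of 28.8 ± 2.35 in High, 32.7 ± 1.03 in Medium and 31.6 ± 2.72 in Low (SD, n = 3 each; log2 fold change -0.13, adjusted p = 0.336). Its partner chain Col9a3 had 2.51, 3.47 and 2.65 in High, 2.43, 3.60 and 2.36 in Medium, and 2.32, 1.52 and 1.51 in Low; it passed after the length correction (adjusted p = 0.0415 against 0.0664 without it). Col26a1 had 2.11, 3.11 and 2.33 in High, 1.70, 2.247 and 1.28 in Medium, and 1.41, 1.70 and 1.67 in Low, and it passed with the block (0.0435) and after the length correction (0.0384) but not in the fit without them (0.0813). The other 7 had means below 5 in each population and log2 fold changes between High and Low of -0.24 to 0.40.

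Of the 3 genes that share only a name with these families, 1 was lower in High and the others did not pass. Itgb3bp, a centromere protein, was lower in High, with levels of 2.38, 4.09 and 3.14 in High, 4.12, 3.60 and 3.70 in Medium, and 5.35, 6.08 and 5.65 in Low (log2 fold change -0.68 ± 0.16, adjusted p = 0.0101). Without Low replicates 1 and 2 together the value was -0.68. Itgb3bp rested on 36 to 46 reads in a High library and 68 to 76 in a Low library. Of its exonic bases, 8.59% overlap those of Pgm1 on the opposite strand, which carries the same doubt as for Nid2. Itgb1bp1, which binds the tail of Itgb1, did not pass (-0.10, adjusted p = 0.721). Col4a3bp, which carries ceramide to the Golgi, did not pass (0.32, adjusted p = 0.139) and was called higher with the block (0.0104) and with block and length correction together (0.0133). Without these genes, 21 of 52 members were higher and 3 lower.

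Several pairs of genes that make or bind the same structure were called unlike each other, and their ratios within a library are given. These pairs were picked after their values were seen, so the ratios are descriptions without a test. The level of Lama1 over that of Lamb1 was 0.672, 0.629 and 0.647 in High, 0.429, 0.435 and 0.439 in Medium, and 0.208, 0.196 and 0.183 in Low. Lamc1 over Lamb1 was 5.36, 4.79 and 4.87 in High, 3.72, 3.42 and 3.64 in Medium, and 2.07, 1.97 and 1.85 in Low. In both the 3 populations were separate, with Medium between High and Low. In Low, where Lama1 itself was 23.4 ± 8.39 (SD, n = 3), its ratio to Lamb1 was 0.196 ± 0.0126. Nid1 over Nid2 was 0.974, 0.866 and 0.816 in High, 0.666, 0.627 and 0.636 in Medium, and 0.337, 0.375 and 0.344 in Low. Itga5 over Itgav was 5.80, 6.84 and 7.10 in High, 3.75, 4.72 and 4.61 in Medium, and 2.50, 2.68 and 2.64 in Low. The ratio of Col4a1 to Col4a2, by contrast, overlapped, at 2.69, 2.47 and 3.44 in High, 2.83, 3.02 and 2.74 in Medium, and 1.91, 3.00 and 3.00 in Low. A ratio shows unequal change and does not say which gene changed; Lama1, Lamc1, Nid1 and Itga5 passed the test and Lamb1, Nid2 and Itgav did not. After the length correction the log2 fold changes in High against Low were 1.28 for Lama1, 1.02 for Lamc1 and -0.24 for Lamb1, 1.06 for Nid1 and -0.19 for Nid2, and 1.02 for Itga5 and -0.42 for Itgav.

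**Figure D4:**
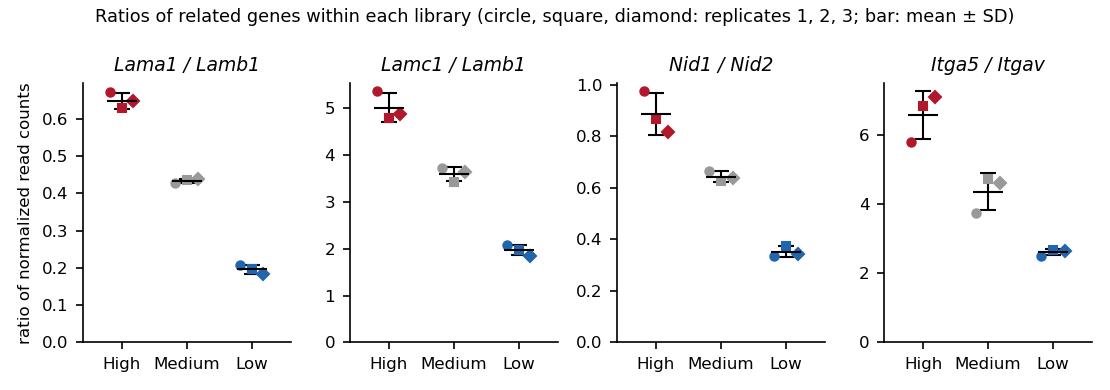
Ratio of the normalised read counts of gene pairs within each library (linear axis from 0), with High left of Medium and Low; circles, squares and diamonds are replicates 1, 2 and 3, and bars are the mean ± SD (n = 3). For Lama1 over Lamb1, Lamc1 over Lamb1, Nid1 over Nid2 and Itga5 over Itgav the 3 populations are separate.

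Medium was compared with each of the other populations; the comparisons share libraries, so their calls are not independent. In High against Medium, 0 of 55 members were called, with log2 fold changes of -0.65 (Col8a1) to 0.49 (Col13a1) and a smallest adjusted p of 0.191; 0.407% of all genes were called. At an unadjusted p under 0.05 there were 5 members, and edgeR and DESeq2 each called 0. After the length correction Itga5 (0.32, adjusted p = 0.0475) and Lama1 (0.36, adjusted p = 0.0374) were higher in High than in Medium, beside 2.46% of all genes called. In Medium against Low, 14 members were higher (25.5%, beside 6.14% of all genes) and 0 lower (beside 5.87%), and all 14 were also called higher in High against Low; 12% of all genes were called in either direction. They included Itga5, Itga6, Itga9, Itgb1, Itgb7, Lama1, Lama3, Lamc1, Nid1, Agrn, Col4a1, Col5a3 and Col6a5. Between 8 and 32 members were called higher with a single library left out, with 8 without Medium replicate 1, Medium replicate 3 or Low replicate 3, 9 without Low replicate 2, and 32 without Low replicate 1.

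Of the called members, 22 of 25 had their Medium mean between those of High and Low. They were picked for a difference between High and Low, which by itself favours a Medium mean in between. The share among all called genes was not computed, so the count is a description of the members only. Itga6, Itgb1 and Col4a1 had their highest mean in Medium. Lama1 was 1.22-fold higher in High than in Medium and 2.38-fold higher in Medium than in Low, Lamc1 1.14-fold and 1.97-fold, Nid1 1.18-fold and 1.92-fold, and Itga5 1.23-fold and 1.69-fold. Whether these steps differ in size was not tested. The calls of Lama1, Lama3, Itga5, Itga9, Nid1 and Col5a3 in Medium against Low held under all 21 alternatives. Those of Itga6, Itgb1, Itgb7, Lamc1, Agrn, Col4a1 and Col6a5 did not. Agrn was lost without each of the 9 libraries in turn except Low replicate 1 (adjusted p 0.0623 to 0.154), under quantile normalization (0.0679), with equal totals (0.0693) and in edgeR (0.0669). Itga6 was lost without High replicate 2 or 3, Medium 1 or 3, or Low 2 or 3 (0.0545 to 0.114), and with equal totals (0.0538). Itgb1 was lost without High 2, Medium 1 or 3, or Low 2 or 3 (0.05 to 0.104), without Low 1 and 2 together (0.056), and under quantile normalization (0.0516). Col4a1 was lost without High 3, Medium 1 or 3, or Low 2 or 3 (0.0517 to 0.12), and Lamc1 without Medium 1 or 3 or Low 3 (0.0624 to 0.0715). Col6a5 had an adjusted p of 0.126 after the length correction, and Itgb7 was lost only without Low replicates 1 and 2 together (0.0803).

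Members have long transcripts, so the fold changes were read against length. The median longest transcript was 5629 nt for the members and 3287 nt for all genes with a length, and 41 of the 55 members were at or above the upper quartile of 4728 nt. In that quartile 16 of 41 members (39.0%) were called higher in High than in Low, beside 17.7% of the 3357 genes in it. After the correction 19 of 41 (46.3%) were, beside 21.7%. Over all lengths the correction gave 27 higher members, beside 19.6% of all genes. Across genes, which are not independent replicates, Spearman's correlation of the log2 fold change with length was 0.20 for 13418 genes and 0.39 for the 55 members, and after the correction -0.02 and 0.20. For Medium against Low it was 0.38 and 0.57, and after the correction -0.03 and 0.23.

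The members' own deviations are given by library. Their median deviation from the gene means was 0.21, 0.15 and 0.08 (log2) in High, 0.23, 0.08 and 0.13 in Medium, and 0.07, -0.43 and -0.34 in Low. In the replicate 1 libraries the difference between long and short transcripts was 0.25 in High, 0.30 in Medium and 0.28 in Low. The members' medians there were 0.21 in High, 0.23 in Medium and 0.07 in Low, from 1 library per population. The part of length in the members' deviations was not tested. The correction reduced the log2 fold change of Lama1 to 1.28, of Lamc1 to 1.02, of Nid1 to 1.06 and of Itga5 to 1.02, each with an adjusted p of 2.63e-05 or below. It turned 8 members that had not passed into calls, of which Itga3, Itgb4, Itgb5, Col9a3, Col26a1 and Hspg2 were higher in High and Itgav and Col18a1 lower; 38.5% of all genes were then called, beside 28.4% without the correction.

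**Figure D5:**
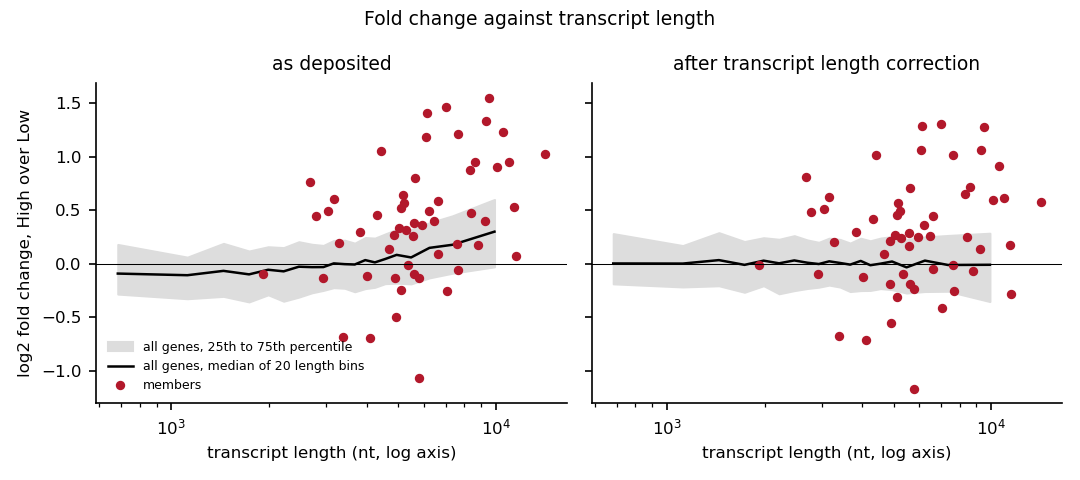
Log2 fold change, High over Low, against the length of the longest transcript in nt (log axis), as deposited on the left and after the length correction on the right; red points are the members, the line is the median of all genes in 20 bins of length and the band their 25th to 75th percentile. Of the members 41 of 55 lie at or above 4728 nt, and the rise of the line with length on the left is flat on the right.

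Proteins that couple integrins to actin were measured for 25 of 30 listed genes; 10 were higher in High than in Low, 3 lower and 12 did not pass, beside 13.8% of all genes higher and 14.6% lower, with a median log2 fold change of 0.44, beside -0.00 for all genes. After the length correction 13 were higher and 5 lower. Parvb and Parva encode the beta and alpha parvins, alternative partners of integrin-linked kinase. Parvb had levels of 148, 147 and 143 in High, 138, 121 and 126 in Medium, and 75.5, 71.0 and 72.2 in Low (log2 fold change 0.99, adjusted p = 2.37e-05). Parva had 5.41, 5.60 and 5.23 in High, 8.25, 6.29 and 7.66 in Medium, and 11.5, 11.7 and 12.2 in Low (-0.99, adjusted p = 0.000258). The parvins were thus called in opposite directions, and Parvb over Parva was 27.3, 26.2 and 27.3 in High, 16.8, 19.2 and 16.4 in Medium, and 6.58, 6.06 and 5.90 in Low. The tensins Tns1 (1.59, adjusted p = 0.00043) and Tns3 (1.49, adjusted p = 0.000353), which tie the tails of beta subunits to actin, were higher, as were paxillin (Pxn, 0.79), talin 1 (Tln1, 0.79), Bcar1 (0.62), Src (0.69) and the actinins Actn1 (0.55) and Actn4 (0.63). Fermt1, a kindlin that activates integrins, was lower at 0.99, 2.58 and 2.01 in High, 4.0, 4.04 and 4.72 in Medium, and 8.51, 8.23 and 8.75 in Low (-1.76, adjusted p = 0.000192), while its relative Fermt2 did not pass (0.18, adjusted p = 0.147).

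Enzymes and chaperones that fold, cut and crosslink collagen were measured for 27 of 36 listed genes; 2 were higher in High than in Low, 7 lower and 18 did not pass, beside 13.8% of all genes higher and 14.6% lower, with a median log2 fold change of 0.01. After the length correction 6 were higher and 8 lower. The lower genes included the catalytic subunits of prolyl hydroxylase, which stabilise the collagen helix. P4ha1 had levels of 10.8, 10 and 9.41 in High, 17.0, 11.3 and 13.0 in Medium, and 21.1, 18.2 and 22.2 in Low (-0.95, adjusted p = 0.00132). P4ha2 had 3.37, 3.65 and 3.46 in High, 3.88, 4.67 and 4.34 in Medium, and 8.44, 6.62 and 8.19 in Low (-0.95, adjusted p = 0.00051). The lysyl hydroxylases went both ways, with Plod1 higher (0.65, adjusted p = 0.000505) and Plod2 lower (-0.72, adjusted p = 0.0138). Pcolce, an enhancer of procollagen cleavage, was higher (0.88, adjusted p = 0.000377), and Serpinh1, the collagen chaperone, was lower (-0.32, adjusted p = 0.0387).

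Markers of other cells that make these matrix proteins were examined beside the members. All 10 ES cell markers were measured, with sums of 5850 to 6660 in High, 5600 to 6290 in Medium and 4790 to 6500 in Low. The labelled cell type thus showed its markers in every library. In High against Low 4 were higher and 0 lower, beside 13.8% of all genes higher and 14.6% lower. After the length correction 6 were higher and 1 lower, beside 38.5% of all genes called in either direction. Of 16 listed markers of primitive, parietal and visceral endoderm, cells rich in Lama1, Lamc1 and Nid1, 5 were measured, with sums of 159 to 212 in High, 139 to 184 in Medium and 74.6 to 144 in Low. Most of that sum was Lrp2, an endocytic receptor (log2 fold change 0.93, adjusted p = 0.0187). Sox7, an endoderm transcription factor, had levels of 4.82, 3.2 and 4.02 in High, 2.85, 1.89 and 3.38 in Medium, and 0.774, 0.805 and 1.11 in Low (1.41, adjusted p = 0.000598), whereas Dab2, an endocytic adaptor of the same cells, was lower (-1.13, adjusted p = 0.000424). Cubn and Amn did not pass. Gata4, Gata6, Sox17 and Pdgfra were on the list but not in the authors' table, in which every gene reached 1 CPM in at least 3 libraries. Their levels are therefore not given. The part of endoderm-like cells in the values of Lama1, Lamc1, Nid1 and Col4a1 was not tested.

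Fibroblast markers, 8 of 14 measured, summed to 26.4 to 34.5 in High, 36.6 to 38.4 in Medium and 36.7 to 41.6 in Low; Thy1 was higher in High (0.69, adjusted p = 0.00384) and Tagln lower (-0.99, adjusted p = 0.000834). Trophoblast markers, 9 of 14 measured, summed to 137 to 145 in High, 227 to 247 in Medium and 482 to 590 in Low. Of the 9, 8 were lower in High than in Low, beside 14.6% of all genes, and 0 were higher, beside 13.8%. Their part in the results for the members was not tested. Each measured marker of these lists had reads in all 9 libraries.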

How the data were processed

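Total RNA of 9 libraries of sorted mouse ES cells was sequenced, per the labels' protocols. RSEM 1.17, cutadapt, limma and Picard appear in the submitters' processing notes without roles. The genome build, annotation and strand setting were not given in the sources used here. Deposited was a table of the authors with a normalised signal per gene and library for 13499 genes on a scale close to CPM (column totals 953055 to 1026948). The deposited signal was a whole multiple of the value of 1 read in 100% of cases, within 0.001 read, which gave 11114936 to 16755566 reads per library. 85 genes had no name and stayed in the tests.

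The test was that of limma 3.58.1 (R 4.3.3), applied to log2(signal + 1 CPM of the library total) with its trend option, a term for population and the spread shared over all 9 libraries; p-values were Benjamini-Hochberg adjusted over all genes, with a threshold of 0.05. A filter of 1 CPM in at least 3 libraries kept every gene. Fold changes on this scale are too small for genes of low level; ratios are of mean signal. Replicates differed beyond counting noise (chi-square per gene 2.37 to 56.96), so none were merged.

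Gene coordinates and longest transcripts came from GENCODE M21 (GRCm38), where identifiers matched 13418 genes (99.4%) and all 55 members. The length correction removed, in each library, a lowess curve (span 0.3) of the deviation from the gene mean over log2 length. The labels give the populations shared replicate numbers. For High and Low, deviations of same-numbered libraries correlated at 0.53, 0.26 and 0.18, all above the preset 0.1, and were treated as paired in a fit with a replicate block, although 2 unlike-numbered pairs (Low 2 and High 3 at 0.31, Low 3 and High 2 at 0.12) also exceed it. The rule was not met for High and Medium (0.35, 0.17 and -0.04) or Medium and Low (0.24, 0.43 and -0.11).

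The 21 alternatives were other pseudocounts, filters, scalings, the block, the length correction, edgeR 4.0.16 and DESeq2 1.42.0 on recovered reads, and leaving out libraries. In simulated High against Low data over 13499 genes, recovery was 8% at a 1.5-fold change, 64% at 2-fold, 98% at 3-fold and 100% at 4-fold, and 9 of 144 calls were unchanged genes. Every simulated gene had the same spread, and the simulated libraries had no trend with transcript length. Only genes above a minimum of reads were changed, so these rates need not hold for rare members or for the real libraries. The members, lists and tests were chosen with earlier results of these data known. Values in every library were to be given for the called members with the largest changes and for a set of basement membrane and integrin genes; the rest are summarised. A member that is counted in the totals is not reported here by name.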

Additional observations from a re-analysis of the deposited data

How the results depend on the processing

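For High against Low, 11 of 25 called members kept their call under all 21 alternatives, among them Itga5, Itga9, Itgb7, Lama1, Lama3, Lamc1, Col5a3, Col6a5, Agrn and Nid1, and 14 kept it without any 1 library. The calls of Itgal, Itgb1, Col13a1, Col6a1 and Col6a2 also did not hold without Low replicates 1 and 2 together, which leaves 1 Low library. Their log2 fold changes there were 0.50, 0.32, 0.56, -0.65 and -0.44. Of 1044 single-gene settings over the named genes, 902 kept their direction and side of the threshold, 108 lost the call, 26 gained it and 8 turned direction. The turns were in members that did not pass. For Lamb1 in High against Low, leaving out a library gave -0.33 to 0.09, 0.09 being without Low replicate 1. For Itgav in Medium against Low it gave -0.1 to 0.17 (-0.1 without Low replicate 2, -0.08 without Medium replicate 1), and the length correction gave -0.2, also with the block. For Lamb1 in Medium against Low it gave -0.04 (without Low replicate 2) to 0.38, and the length correction gave -0.01, also with the block. The cause was not tested.

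Members higher in High than in Low numbered 12 to 32 with a library left out, and members lower 2 to 4, beside 21 and 4. The count of lower members was 1 with a filter of 5 CPM, which tested 37 members, 2 under quantile normalization, 7 with the length correction and replicate block together, and 0 without Low replicates 1 and 2 together. Members called in High against Medium numbered 2 with the length correction and 5 with the block as well, beside 0. Of the 5, Itga5, Lama1 and Nid1 were higher in High. Col1a1 (log2 fold change -0.45, adjusted p = 0.0379) and Col1a2 (-0.47, adjusted p = 0.0363) were lower in High than in Medium. Members higher in Medium than in Low numbered 25 with the replicate block, 23 with block and length correction, and 8 to 32 with a library left out, beside 14; members lower numbered 2, 3 and 0 to 1 in these fits and 1 with the length correction alone, beside 0.

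Over all genes, calls in High against Low numbered 6023 with block and length correction and 2345 to 5846 with a library left out, beside 3832. High against Medium gave 203 with the block, 330 with the length correction, 514 with both, 260 in DESeq2, 179 without Low replicates 1 and 2 together and 11 to 206 with a library left out, beside 55. Medium against Low gave 3656 with the block, 2754 with the length correction, 3830 with both and 527 to 5123 with a library left out, beside 1621. With the block, members called in High against Low gained Itga3, Itgb4, Col4a3bp, Col1a1, Col26a1, Col5a1 and Hspg2 and lost none. For the other 2 comparisons the preset rule for pairing was not met, which does not show that their libraries were unpaired. A call gained or lost there with the block says nothing of the size of an effect. Depth limits the rarest collagens most: Col6a1 and Col6a2 had as few as 4 reads in a library.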

Other observations

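Matrix proteins and receptors outside the integrin, laminin and collagen families were measured for 33 of 38 listed genes; in High against Low 5 were higher, 7 lower and 21 did not pass, beside 13.8% of all genes higher and 14.6% lower, with a median log2 fold change of -0.01. After the length correction 6 were higher and 11 lower. Sdc4, a syndecan that acts with integrins on fibronectin, had levels of 59.3, 67.7 and 70.2 in High, 119, 131 and 112 in Medium, and 287, 311 and 301 in Low. It was lower in High than in Low (-2.17, adjusted p = 1.12e-06) and than in Medium (-0.87, adjusted p = 0.00355). Gpc1, a glypican anchored to the membrane by a lipid, had 17.2, 18.8 and 17.7 in High, 26.4, 28.5 and 27.1 in Medium, and 52.6, 44.1 and 49.4 in Low (-1.39, adjusted p = 1.11e-05). Bcam, a membrane receptor for Lama5, had 183, 199 and 193 in High, 155, 154 and 153 in Medium, and 98.2, 93.2 and 101 in Low (0.97, adjusted p = 1.74e-05). Sparc, a calcium-binding matrix protein that binds collagen, had 427, 437 and 421 in High, 332, 355 and 340.0 in Medium, and 214, 231 and 219 in Low (0.95, adjusted p = 1.9e-05). In these 4 genes the populations did not overlap, with Medium between High and Low.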
